A study of Mus musculus with 3 samples.

Results

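Keratins are the intermediate filament proteins of epithelial cells, and the keratin genes examined here were Krt7, Krt8, Krt18 and Krt19 (luminal), Krt5, Krt14, Krt15 and Krt17 (basal) and Krt10 (suprabasal). They were taken by symbol: every array probe whose accession maps to 1 of these 9 genes was used. This gave 11 probes, with 2 each for Krt5 and Krt10 and 1 for each other gene. All 9 genes were among the 21743 genes and transcripts tested.

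The arrays compared primary cultures of mammary tumor cells from 3 tumors of the MMTV-PyMT model. Tumors of this model arise from a polyoma middle T transgene driven by the mouse mammary tumor virus promoter. For such cultures the methods describe cells from tumor transplants, seeded on Matrigel. The tumors (811a, 812a and 815a) are called 1, 2 and 3 here. From each, a culture given RANKL (RL) for 24 h was paired on 1 two-color Agilent array with an untreated control culture. All cultures grew with serum, insulin, EGF and cholera toxin. The labels give an RL dose of 1000 µg/mL and the methods give 1 µg/mL. Mouse age and strain were not given in the labels. RL was labeled with Cy3 for tumors 1 and 3 and with Cy5 for tumor 2, and each tumor has 1 array here. The methods describe dye swaps for every sample, but a second dye order for a tumor was not used here. Effects of the dye order and of the tumor cannot be told apart, and differences between tumors cannot be told apart from differences between arrays. Over 21721 genes, Pearson's r of the log2 ratios of RL over control was 0.45 between tumors 1 and 3, which share a dye order. It was −0.11 between tumors 1 and 2 and −0.11 between tumors 2 and 3, where the dye orders differ. Of the 9 keratins, 0 had the same sign in tumors 1 and 2, 4 in tumors 1 and 3 and 5 in tumors 2 and 3. The cause was not tested.

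Type I and type II keratins pair to form filaments that link to desmosomes and hemidesmosomes. In the mammary epithelium, Krt8 and Krt18 are the main pair of the luminal layer, joined by Krt7 and Krt19. Krt5 and Krt14 are the pair of the basal, myoepithelial layer, and Krt15 and Krt17 are other type I keratins of basal cells. Krt10 belongs to the suprabasal layers of the epidermis. RANKL acts through its receptor RANK, encoded by Tnfrsf11a, which signals to NF-κB.

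With RL, no luminal or basal keratin moved in 1 direction in all 3 tumors. Under other processing Krt14 did so without background correction (−0.03, −0.06 and −0.55), as did Krt17 in the scanner software's processed signals (0.53, 0.05 and 0.04). The suprabasal Krt10 was higher in all 3 tumors in the processed signals (0.04, 0.07 and 0.07). It was lower in all 3 when its probes were averaged (−0.06, −0.04 and −0.17). Of all genes tested, 14.2% were higher and 13.3% were lower with RL in all 3 tumors. By limma, 0 of the 9 keratins passed an adjusted p of 0.05 in either direction, against 0.00460% of all genes tested for higher and 0.0230% for lower values. At an unadjusted p under 0.05, 0 of 9 passed, against 7.16% of all genes. By rank product, with a proportion of false positives (pfp) under 0.05, 0 of 9 passed, against 0.419% of all genes. With a dye term in the limma model, 0 of 9 passed, against 1.05% of all genes. Except for Krt18, each mean change was smaller than 1.2-fold.

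Among the luminal keratins, Krt8 had log2 ratios of RL over control of 0.17, −0.16 and −0.07 in tumors 1, 2 and 3, with a mean of −0.02 ± 0.08 (SE, n = 3). Its 95% interval ran from −0.21 to 0.16. Krt7, the type II keratin of simple ductal epithelia, had ratios of 0.29, −0.28 and −0.07 in tumors 1, 2 and 3 (mean −0.02, 95% interval −0.25 to 0.21). For both genes the RL culture was the brighter of the pair in tumor 1 and the dimmer in the other tumors. Krt19, the type I keratin that lacks most of the tail domain, had 0.24, −0.31 and −0.31 (mean −0.12, 95% interval −0.37 to 0.12). Without a dye term Krt18 departed furthest from 0, with −0.72, 0.42 and −0.70 (mean −0.33 ± 0.19, SE, limma adjusted p = 0.781). With a dye term its change was −0.14, against −0.17 for Krt19 and −0.18 for the basal keratin Krt14. With 1 tumor left out at a time, the mean ran from −0.17 to 0.11 for Krt7, from −0.12 to 0.050 for Krt8, from −0.31 to −0.033 for Krt19 and from −0.71 to −0.14 for Krt18.

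Among the basal keratins, Krt14 had log2 ratios of 0.05, −0.14 and −0.47 in tumors 1, 2 and 3, with a mean of −0.19 ± 0.10 (SE, n = 3) and an adjusted p of 0.759 by limma. Its partner Krt5 had 0.06, −0.21 and −0.11, with a mean of −0.09 and a 95% interval from −0.26 to 0.09. The second, dimmer probe of Krt5 had 0.09, −0.10 and −0.25, with the same signs in each tumor. Krt5 and Krt14 thus had the same order of signs, with values near 0 in tumor 1 and below 0 in the other tumors. The luminal Krt7, Krt8 and Krt19 shared this order, above 0 in tumor 1 and below 0 in the other tumors. Krt15 had −0.12, 0.08 and −0.34 (mean −0.12). Krt17, which is also induced in stressed and wounded epidermis, had 0.54 in tumor 1, −0.03 in tumor 2 and 0.05 in tumor 3 (mean 0.19, 95% interval −0.06 to 0.43). Without tumors 1, 2 and 3 in turn its mean was 0.010, 0.30 and 0.25. With 1 tumor left out at a time, the mean ran from −0.31 to −0.048 for Krt14, from −0.16 to −0.027 for Krt5 and from −0.23 to −0.020 for Krt15. Krt10 was the least changed, with −0.06, 0.04 and −0.0014 (mean −0.0047), while its dimmer probe had −0.06, −0.12 and −0.34.

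**Figure D1:**
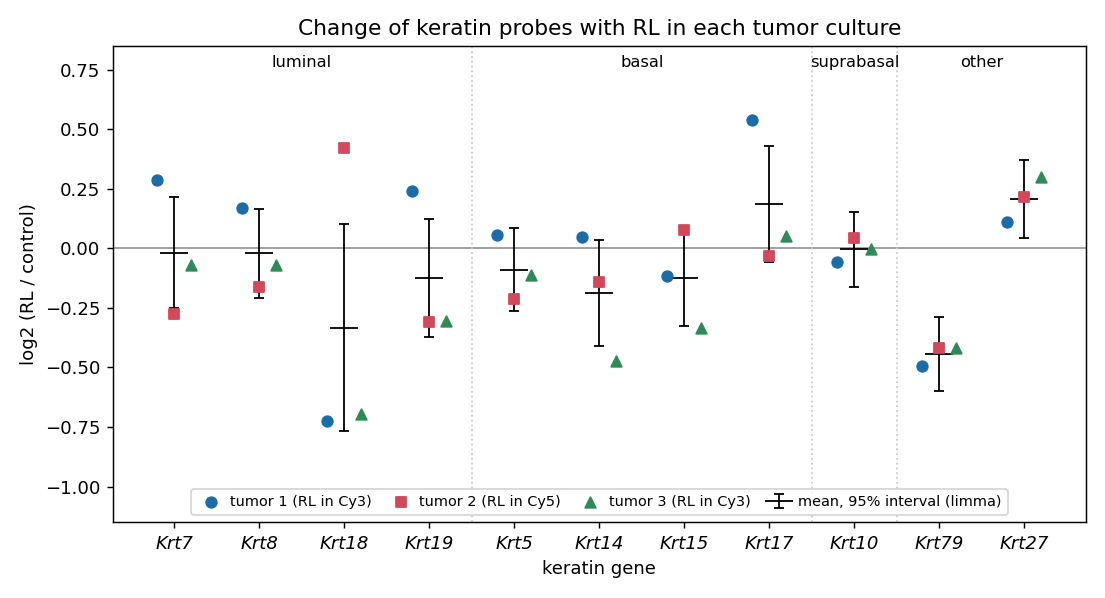
Log2 ratio of RL over control (vertical axis) for the 9 keratins, and for Krt79 and Krt27, in tumors 1 (circles), 2 (squares) and 3 (triangles); horizontal bars are means and whiskers are 95% intervals from limma. The 9 keratins have points on both sides of 0, whereas the 3 points of Krt79 lie between −0.49 and −0.42.

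The median log2 change was −0.07 for the 4 luminal keratins and −0.11 for the 4 basal keratins, beside −0.00055 for all genes tested. Without tumors 1, 2 and 3 in turn, the luminal median was −0.15, 0.0084 and −0.016 and the basal median −0.15, −0.12 and −0.034. By tumor, the luminal median was 0.20, −0.22 and −0.19 and the basal median was 0.05, −0.09 and −0.22 in tumors 1, 2 and 3. By these medians both groups stood above 0 in tumor 1 and below 0 in the other tumors, whereas the luminal mean of tumor 1 was −0.0070. The mean of the luminal keratins minus that of the basal keratins was −0.14, −0.0038 and −0.07, with a mean of −0.07 ± 0.07 (SD, n = 3). This difference was about as large as its own spread between tumors, was −0.036 without tumor 1, and has the other sign when the medians are compared. The means include Krt18, and no test was made. In RNA from whole cultures, fewer cells of a type and less RNA per cell cannot be told apart.

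The ratio of Krt18 turned with the dye order. Its control culture was brighter in tumors 1 and 3, where the control was in Cy5, and its RL culture was brighter in tumor 2, where RL was in Cy5. Written as Cy5 over Cy3, its log2 ratios were 0.72, 0.42 and 0.70 in tumors 1, 2 and 3. By spot intensity, the Krt18 probe was the brightest of those for the 9 keratins and ranked 35 of 21721, with raw Cy5 intensities of 309406, 257694 and 359749 and no saturated spot. Of the 104 genes tested with a mean log2 level from 17 to 18, 101 were brighter in Cy5 on all 3 arrays, with median Cy5 over Cy3 ratios of 0.44, 0.49 and 0.42. Over all levels, 18.6% of genes were brighter in Cy5 on all 3 arrays, as were Krt10, Krt15 and Krt18. In Cy3, 16.1% were brighter on all 3 arrays, as was Krt17. Krt17 had a mean log2 level of 13.85. Of the 1103 genes with a mean level from 13 to 14, 379 were brighter in Cy3 on all 3 arrays.

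With the dye as a term beside RL, the log2 change of Krt18 was −0.14 ± 0.07 (SE), with an adjusted p of 0.568 by limma. Leaving out tumor 2 gave −0.71 with an adjusted p of 1.33e-05, from arrays that both had RL in Cy3. Over all 14 alternatives its adjusted p by limma ran from 1.33e-05 to 1.00. In the scanner software's own processed signals the 3 ratios were −0.39, 0.10 and −0.26, again brighter in Cy5 on each array. Its partner Krt8, at a mean log2 level of 15.22, had Cy5 over Cy3 ratios of −0.17, −0.16 and 0.07. In the processed signals and in the authors' log2 ratios Krt8 was brighter in Cy3 on each array. With median centering in place of loess Krt8 was brighter in Cy5 on each array.

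**Figure D2:**
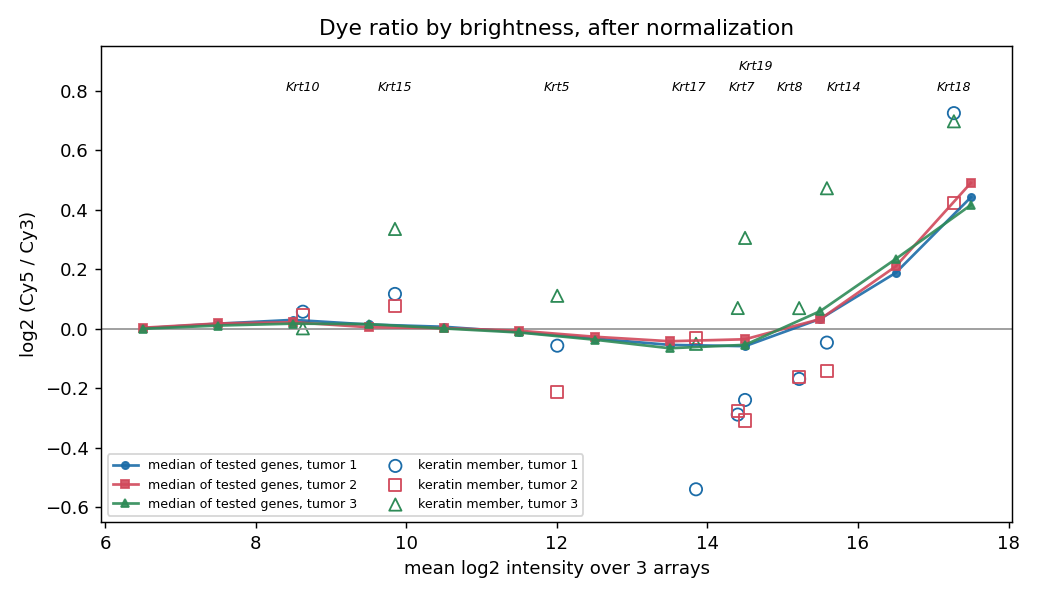
Log2 ratio of Cy5 over Cy3 after normalization (vertical axis) against the mean log2 intensity over 3 arrays (horizontal axis); lines join medians of all tested genes in bins of 1 log2 unit, and open symbols are the 9 keratins, per tumor. The medians stay near 0 up to a level of 15 and reach 0.44, 0.49 and 0.42 in the brightest bin, where Krt18 lies.

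In 8 of the 9 keratins, all but Krt18, the range over tumors exceeded the largest gap between the RL and control cultures of a tumor, as it did in 69.9% of all genes with 3 values. The median ratio of range to gap was 4.30 for the 9 keratins and 1.60 for all genes. For Krt18 the range and gap were 0.45 and 0.72 in log2, and for Krt10 they were 0.08 and 0.06. The range averages both dyes of an array, whereas the gap compares them, and the Krt18 ratios turned with the dye order. The ratios of range to gap were computed after the values were seen. Levels are log2 intensities, and amounts of RNA are not compared between probes. Krt5 had 10.47 in the control and 10.53 in the RL culture of tumor 1, 12.88 and 12.67 in tumor 2, and 12.79 and 12.68 in tumor 3. Both cultures of tumor 1 were thus far below the other 4, while tumors 2 and 3 overlapped. Averaged over both cultures, tumor 2 exceeded tumor 1 by 4.85-fold. The dimmer Krt5 probe had 6.48, 7.71 and 7.93 in tumors 1, 2 and 3, also lowest in tumor 1.

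Krt14 was likewise lowest in tumor 1, with 14.85 in the control and 14.90 in the RL culture, against 15.79 and 15.65 in tumor 2 and 16.40 and 15.93 in tumor 3. The 3 tumors did not overlap, and the highest exceeded the lowest by 2.46-fold. Krt15 had 8.80 and 8.68 in the control and RL cultures of tumor 1, 11.06 and 11.14 in tumor 2, and 9.88 and 9.54 in tumor 3. Its range of 5.15-fold was the widest of the 9 genes, and here tumor 2 was the highest. Krt17 had another order, with 13.29 and 13.83 in tumor 1, 13.13 and 13.10 in tumor 2, and 14.84 and 14.89 in tumor 3. Tumor 3 exceeded tumor 2 by 3.37-fold.

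Averaged over both cultures, all 4 luminal keratins were lowest in tumor 2, as were 6506 of 21721 genes. Krt19 had 14.87 and 15.10 in the control and RL cultures of tumor 1, 13.82 and 13.51 in tumor 2, and 15.00 and 14.70 in tumor 3, a range of 1.32 in log2 in which tumors 1 and 3 overlapped. Krt7 had 14.12 and 14.41, 13.92 and 13.64, and 15.20 and 15.13 in tumors 1, 2 and 3, with no overlap and a range of 2.61-fold. Krt8 had 14.99 and 15.16, 15.01 and 14.84, and 15.69 and 15.62, so that tumors 1 and 2 overlapped and tumor 3 was higher. Krt18 had 17.62 and 16.89, 16.85 and 17.27, and 17.86 and 17.16, and its tumors overlapped. In each tumor the higher of these Krt18 values was that of the culture in Cy5. Krt10 had levels of 8.59, 8.66 and 8.63 over both cultures, a range of 1.05-fold, but its dimmer probe had 7.54, 6.61 and 7.40.

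In 6 of the 9 keratins the highest tumor exceeded the lowest by at least 2-fold. These were all 4 basal keratins, Krt7 and Krt19. Of all genes with 3 values, 7.39% had such a range, and of those at least as bright as Krt10, 8.03%. The median range in log2 was 1.32 for the 9 keratins, 2.02 for the basal and 1.03 for the luminal keratins, and 0.27 for all genes. The 2-fold mark was chosen after the values were seen, and no test was made with 1 array per tumor. Without tumor 2 or without tumor 3 the count was 3 of 9.

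Centered on each gene's mean over the tumors, the basal keratins stood at −0.90, 0.36 and 0.55 on average in tumors 1, 2 and 3, and the luminal keratins at 0.05, −0.49 and 0.45. The luminal average was above the basal by 0.95 in tumor 1, whereas in tumors 2 and 3 the difference was −0.85 and −0.10. The mean shift of this difference with RL was −0.07. In 69.9% of all genes the range over tumors exceeded the largest gap between the RL and control cultures. The values are given as a description.

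**Figure D3:**
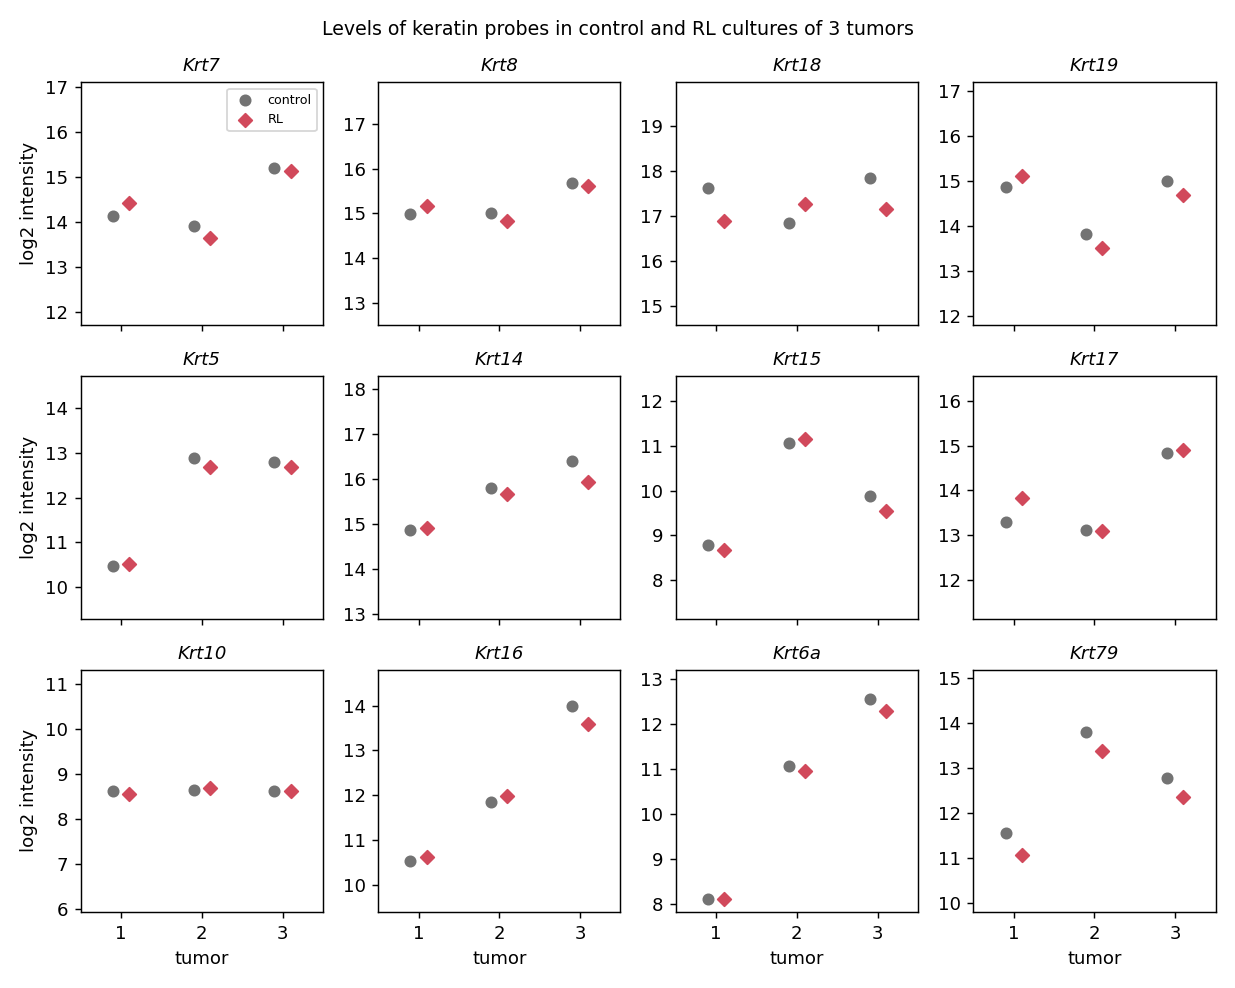
Log2 intensity (vertical axes, all of the same span) of the 9 keratins and of Krt6a, Krt16 and Krt79 in the control (circles) and RL (diamonds) cultures of tumors 1, 2 and 3. Krt5 is at 10.47 and 10.53 in tumor 1 against 12.67 to 12.88 in tumors 2 and 3.

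Sequences 5′ to 3′ of promoters are shown for the basal pair, which was lowest in tumor 1 in both genes, and for the luminal pair. The ratios of Krt18 turned with the dye order, and with a dye term the changes were −0.06 for Krt8 and −0.14 for Krt18. A difference between Krt8 and Krt18 in response to RL was not tested. Each window runs from 250 bases before to 50 bases after the annotated start (RefSeq, GRCm38.p6). Such a window was matched for 6 of the 9 genes. Krt5 lies on the minus strand at chr15:101712856-101713155, Krt14 on the minus strand at chr11:100205981-100206280, Krt8 on the minus strand at chr15:102004293-102004592 and Krt18 on the plus strand at chr15:102027966-102028265. Capitals mark matches on either strand to the TATA box letters TATAAA, the GC box letters GGGCGG, the AP-1 motif TGANTCA or the NF-κB decamer.
Krt5: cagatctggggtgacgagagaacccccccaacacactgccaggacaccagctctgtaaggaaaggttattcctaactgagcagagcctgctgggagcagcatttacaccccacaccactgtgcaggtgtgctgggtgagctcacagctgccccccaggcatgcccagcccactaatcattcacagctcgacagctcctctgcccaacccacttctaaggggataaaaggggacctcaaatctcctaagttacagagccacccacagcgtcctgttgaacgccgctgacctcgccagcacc
Krt14: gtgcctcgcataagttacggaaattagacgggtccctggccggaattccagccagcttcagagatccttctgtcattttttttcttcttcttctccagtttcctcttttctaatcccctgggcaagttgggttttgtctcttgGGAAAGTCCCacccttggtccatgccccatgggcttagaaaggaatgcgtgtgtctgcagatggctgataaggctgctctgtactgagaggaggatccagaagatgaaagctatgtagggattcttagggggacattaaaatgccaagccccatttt
Krt8: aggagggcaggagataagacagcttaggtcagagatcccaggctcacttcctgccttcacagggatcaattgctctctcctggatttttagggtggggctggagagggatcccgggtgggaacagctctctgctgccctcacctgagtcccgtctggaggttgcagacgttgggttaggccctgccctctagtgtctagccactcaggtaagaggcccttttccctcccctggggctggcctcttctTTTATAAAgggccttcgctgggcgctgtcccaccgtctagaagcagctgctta
Krt18: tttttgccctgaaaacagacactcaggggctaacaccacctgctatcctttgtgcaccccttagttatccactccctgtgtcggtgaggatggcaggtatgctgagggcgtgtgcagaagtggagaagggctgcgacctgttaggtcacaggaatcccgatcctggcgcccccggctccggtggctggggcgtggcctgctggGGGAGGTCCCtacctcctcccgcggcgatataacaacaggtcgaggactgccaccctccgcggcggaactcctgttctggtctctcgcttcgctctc

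The Krt5 window held none of these motifs. Krt14 held 1 NF-κB decamer at bases 144 to 153 of the window and Krt18 held 1 at bases 204 to 213. Krt8 held TATAAA on each strand, at bases 248 to 253 and 250 to 255, which overlap. Of the other windows, Krt7 held 4 matches to GGGCGG and Krt10 held 1 to TATAAA. Of 32851 promoter windows of mouse genes, 8.46% held the NF-κB decamer, 13.6% TATAAA, 35.7% GGGCGG and 7.81% TGANTCA. A match describes letters only.

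The stress keratins Krt6a, Krt6b and Krt16, which rise in wounded or hyperproliferative epidermis, had wider tumor differences than the 9 genes. Over both cultures, Krt6a had levels of 8.11, 11.01 and 12.43 in tumors 1, 2 and 3, a range of 19.9-fold. Krt6b had a range of 15.9-fold, and Krt16 had 10.59, 11.91 and 13.80. All 3 were lowest in tumor 1 and highest in tumor 3, as was Krt14. With RL, Krt6a had log2 ratios of −0.02, −0.11 and −0.27 and Krt16 had 0.08, 0.13 and −0.40. By limma, at an unadjusted p under 0.05, by rank product and with a dye term, 0 of the 3 passed. Krt6a and Krt6b, and Krt14, Krt16, Krt17 and Krt42, are close relatives, and binding of a probe to a relative's RNA was not tested.

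Of 44 other keratin genes with a probe, 20 were tested and 24 were too dim. Krt79, a type II keratin of the upper hair follicle and sebaceous duct, was lower with RL in each tumor, with log2 ratios of −0.49, −0.42 and −0.42. Its level was 11.55 in the control and 11.06 in the RL culture of tumor 1, 13.82 and 13.40 in tumor 2, and 12.79 and 12.37 in tumor 3, so the pairs differed alike while the tumors spanned 4.92-fold. The mean was −0.44 ± 0.07 (SE, n = 3). It missed the threshold by limma (adjusted p = 0.113), passed by rank product (pfp of 0.0328), and passed with a dye term (adjusted p = 0.00151), where 228 of all genes passed. Over 14 alternatives its change lay between −0.56 and −0.42 and its adjusted p by limma between 0.00122 and 1.00. With median centering in place of loess, tumor 2 turned to 0.29 while tumors 1 and 3 were at −1.03 and −0.94. In all other processing of the 3 arrays, Krt79 was below 0 whether RL was in Cy3 or in Cy5.

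The promoter of Krt79 is shown because this keratin was lower with RL by a like amount in each tumor. It lies on the minus strand at chr15:101940275-101940574 (GRCm38.p6, RefSeq) and held 1 NF-κB decamer, in capitals, at bases 192 to 201. In gene order, Krt78 is the only gene between Krt79 and Krt8.
Krt79: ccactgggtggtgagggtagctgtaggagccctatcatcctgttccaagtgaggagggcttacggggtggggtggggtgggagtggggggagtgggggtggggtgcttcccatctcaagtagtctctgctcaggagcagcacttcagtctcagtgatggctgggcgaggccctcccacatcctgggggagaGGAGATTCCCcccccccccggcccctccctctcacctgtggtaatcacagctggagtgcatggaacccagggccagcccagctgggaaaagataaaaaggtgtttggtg

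Krt27, a type I keratin of the hair follicle's inner root sheath, was the other keratin with 1 sign and a mean of at least 0.2 in size. It had log2 ratios of 0.11, 0.22 and 0.30 at a dim level of 6.29 to 7.44, with an adjusted p of 0.564 by limma and of 0.257 with a dye term. Its mean of 0.21 was 0.51 in the processed signals and 0.31 in the authors' log2 ratios. Krt71, also of the inner root sheath, had −0.14, −0.65 and 0.00 and passed only with a dye term (adjusted p = 0.0117). That model leaves no residual for tumor 2, where RL was in Cy5, so the −0.65 of tumor 2 has no replicate. Krt71 is named after its values were seen. Over the 20 other keratins, 1 was higher and 5 were lower in all 3 tumors, beside 14.2% and 13.3% of all genes. Their median log2 change was −0.06. Of all genes, 7.16% had an unadjusted p under 0.05 by limma and 0.419% passed by rank product. None of the 20 passed by limma, 3 had an unadjusted p under 0.05, 1 passed by rank product and 2 passed with a dye term.

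The NF-κB response genes were examined to describe their change with RL in the same RNA. This list was chosen with earlier results of these data known, so it is not an independent check. All 6 were higher with RL in each tumor, as were 14.2% of all genes. Their median log2 change was 0.59, and it was 1.15, 0.45 and 0.24 in tumors 1, 2 and 3. Their means ran from 0.44 for Birc3 to 0.77 for Nfkbia. Without tumor 1 they ran from 0.25 for Relb to 0.48 for Traf1. Nfkbia, the inhibitor of NF-κB, had log2 ratios of 1.47, 0.47 and 0.38. Nfkb2, a subunit of the noncanonical pathway, had 1.25, 0.43 and 0.20, and its partner Relb had 1.15, 0.29 and 0.21. The signaling adaptor Traf1 had 1.14, 0.31 and 0.65, the apoptosis inhibitor Birc3 had 0.66, 0.51 and 0.16, and the adhesion molecule Icam1 had 0.71, 0.48 and 0.27 (mean 0.49, but 0.97 in the processed signals and 0.71 in the authors' log2 ratios). None of the 6 passed the limma adjusted p of 0.05, where the lowest was 0.199 for Icam1, while all 6 had an unadjusted p under 0.05, 3 passed by rank product and all 6 passed with a dye term. Without tumor 2, when both arrays had RL in Cy3, all 6 passed by limma. The adjusted p then ran from 6.06e-06 for Traf1 to 0.0122 for Birc3. With median centering in place of loess, tumor 3 was below 0 for Nfkb2, Relb, Nfkbia and Birc3. Tnfrsf11a had 0.11, −0.08 and 0.13.

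Of the other luminal genes, 15 of 16 were tested, and Pgr was too dim. None passed by limma, by rank product or with a dye term, and 1 had an unadjusted p under 0.05. In all 3 tumors 1 was higher and 3 were lower, beside 14.2% and 13.3% of all genes, and the median log2 change was 0.03. Kit, a receptor of luminal progenitors, had the lowest mean at −0.22, from −0.09, −0.31 and −0.25, and Elf5, a transcription factor of alveolar progenitors, followed with −0.18, −0.18 and −0.06. The highest means were those of Foxa1, a partner of the estrogen receptor, with 0.65, −0.18 and 0.30, and of the tight junction gene Cldn7, with 0.37, −0.15 and 0.23. Both were brighter in Cy3 on all 3 arrays. Without tumor 1 the means of Foxa1 and Cldn7 were 0.06 and 0.04, and without tumor 2, when both arrays had RL in Cy3, they were 0.48 (adjusted p = 0.00167 by limma) and 0.30 (adjusted p = 0.0381). Their levels were lowest in tumor 2 in 7 genes, in tumor 3 in 6 and in tumor 1 in 2. Of 21721 genes, 6506 were lowest in tumor 2, and the difference was not tested.

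Of the other basal and myoepithelial genes, 7 of 9 were tested, and Myh11 and Mylk were too dim. By limma, at an unadjusted p under 0.05, by rank product and with a dye term, 0 of 7 passed. In all 3 tumors 1 was higher and 0 were lower, beside 14.2% and 13.3% of all genes, and the median log2 change was −0.09. The contractile genes Cnn1 (−0.71, 0.27 and −0.36) and Acta2 (−0.42, 0.08 and −0.05) had the lowest means, and both were brighter in Cy5 on all 3 arrays. The mean of Cnn1, −0.27, was −0.13 with a dye term, −0.04 without tumor 1 and −0.53 without tumor 2 (adjusted p = 0.000583 by limma), and that of Acta2 was 0.01 without tumor 1. Without a dye term the highest were those of Trp63, the p63 transcription factor of basal cells (0.04, 0.01 and 0.09), and of Tagln (−0.28, 0.12 and 0.19). The mean of Trp63, 0.04, was 0.0007 when its probes were averaged. That of Tagln, 0.01, was −0.04 without tumor 2 and −0.08 without tumor 3. Trp63 was lowest in tumor 1 in level, with 10.74, 11.85 and 11.81 over both cultures, the order found for Krt5. Of the 7 genes, 4 were lowest in tumor 1 and 3 in tumor 3, beside 7967 and 7248 of 21721 genes. Acta2 had 9.33, 11.28 and 11.01, again lowest in tumor 1. Cnn1 (8.72), Actg2 (6.85) and Oxtr (7.34) were lowest in tumor 3, and Oxtr was highest in tumor 1 with 9.15; Actg2 and Oxtr are named after their values were seen. Centered on each gene's mean, the levels of the 7 genes averaged −0.53, 0.39 and 0.14 in tumors 1, 2 and 3. Whether the share of basal cells differed between the cultures was not tested.

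Of the genes that anchor keratins at desmosomes and hemidesmosomes, 15 of 16 were tested, all but Dsc3. By limma, by rank product and with a dye term 0 of 15 passed, and 2 had an unadjusted p under 0.05. In all 3 tumors 0 were higher and 1 was lower, beside 14.2% and 13.3% of all genes, and the median log2 change was −0.06. The desmosomal plaque protein Dsp was the gene lower in all 3, with −0.06, −0.15 and −0.37 (mean −0.19, or −0.04 when its 2 probes were averaged), and the cytolinker Plec had 0.04, −0.19 and −0.26. The hemidesmosome integrin Itgb4 had the highest mean, with 0.38, −0.02 and 0.35 (brighter in Cy3 on all 3 arrays; 0.37 without tumor 2, adjusted p = 0.00807), followed by Evpl with 0.28, 0.05 and −0.06. Without tumor 1 the mean of Evpl was −0.0065. In level, 9 of the 15 were lowest in tumor 1, as were 7967 of 21721 genes. Col17a1, the hemidesmosome collagen, had 7.67, 9.93 and 10.38, a range of 2.71 in log2, and is named after its values were seen. Of the epidermal differentiation genes, 4 of 8 were tested, with a median log2 change of 0.07 and none in 1 direction. Lor (mean 0.12) and Sprr1a (0.09) had the highest and Sprr1b (0.02) and Krt2 (0.05) the lowest means. In the processed signals these were 0.38, 0.23, 0.22 and −0.0062, with Krt2 the lowest of the 4. Without tumor 1 the mean was 0.19 for Lor, −0.015 for Sprr1a and −0.020 for Sprr1b, and without tumor 2 it was −0.018 for Krt2.

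Markers of other cell types were present to differing extents. All 10 fibroblast markers were tested, with a median log2 change of −0.05. In all 3 tumors 0 were higher and 1 was lower, beside 14.2% and 13.3% of all genes. Pdgfra (−0.38, −0.15 and −0.04) and Postn (−0.45, 0.00 and 0.04) had the lowest means, and Thy1 (−0.20, 0.10 and 0.23) and Dcn (−0.06, −0.03 and 0.11) the highest. Without tumor 1 the means of Pdgfra and Postn were −0.10 and 0.02. Without tumor 3 those of Thy1 and Dcn were −0.05 and −0.05. Centered on each gene's mean, their levels averaged −0.26, −0.38 and 0.64 in tumors 1, 2 and 3. Of the 10, 5 were lowest in tumor 1, Pdgfra and Postn among them, and 5 were lowest in tumor 2, Dcn and Thy1 among them. Their part in the keratin differences was not tested.

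Of the leukocyte markers used here, 7 were tested, and Cd3g and Ms4a1 were too dim. In all 3 tumors 0 were higher and 1 was lower with RL, beside 14.2% and 13.3% of all genes. Their centered levels averaged 0.08, −0.18 and 0.10 in tumors 1, 2 and 3, and 5 of the 7 were lowest in tumor 2. Cd68 was lower with RL in all 3 tumors, with −0.34, −0.14 and −0.18 (adjusted p = 0.544 by limma), and Lyz2 had −0.30, −0.13 and 0.16. The mean of Lyz2 was 0.017 without tumor 1. Ptprc (mean 0.05) and Csf1r (mean 0.03) had the highest means. The mean of Ptprc was −0.025 without tumor 1, and that of Csf1r was −0.026 without tumor 3. Of the endothelial markers, Cdh5 and Tek were too dim, and Pecam1 and Kdr had mean changes of −0.11 and 0.11. Pecam1 was brighter in Cy5 and Kdr in Cy3 on all 3 arrays. With a dye term their changes were −0.05 and 0.06. Of the adipocyte markers, Adipoq, Plin1 and Lep were too dim, and Fabp4 had a mean of 0.16. Fabp4 was brighter in Cy3 on all 3 arrays, and its change was 0.11 with a dye term. Its levels were 7.57, 9.39 and 8.62 in tumors 1, 2 and 3, lowest in tumor 1 and highest in tumor 2 as for Krt5 and Krt15. The part of Fabp4-expressing cells in the keratin differences was not tested. No marker of these 4 cell types passed by limma, by rank product or with a dye term, and at an unadjusted p under 0.05 only Pdgfra and Cd68 passed. All cultures held the 4 luminal and 4 basal keratins well above background.

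**Figure D4:**
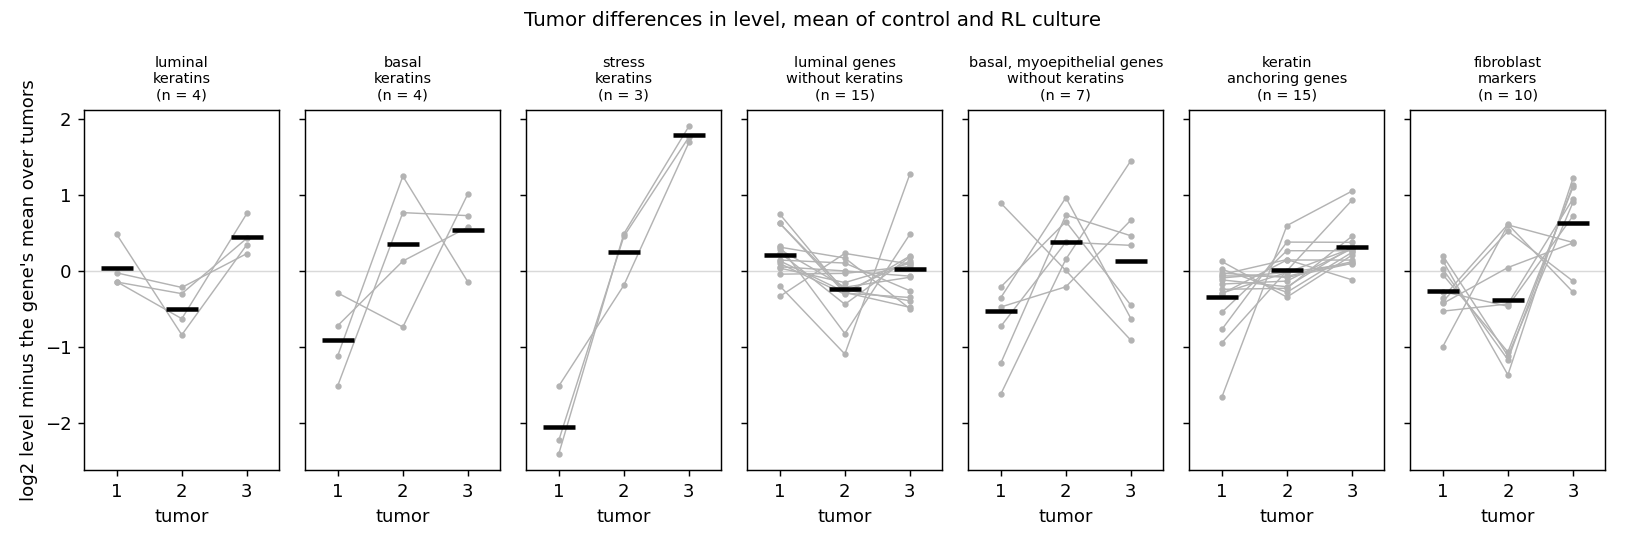
Log2 level in tumors 1, 2 and 3, averaged over the control and RL culture and set to a mean of 0 per gene (vertical axis); gray lines are genes, black bars are means of a gene group. The basal keratins average −0.90 in tumor 1 against 0.36 and 0.55 in tumors 2 and 3, and the luminal keratins are lowest in tumor 2 at −0.49.

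The genes with levels most like those of Krt14 over the 6 channels, each centered on its own mean, were Hr, Mex3b, Smpdl3b, Ajuba and Erfe. Their root mean square differences from Krt14 lay between 0.09 and 0.12 in log2, beside an SD of 0.61 for Krt14 itself. Hr, a corepressor of the hair follicle, had levels of 10.83, 11.58 and 12.09 over both cultures, and Ajuba, a LIM protein of cell junctions, had 10.93, 11.58 and 12.13. For Krt18 they were Tuba1c, Blcap, Cyp26b1, Chchd2 and Ascc3, with differences of 0.14 to 0.15 beside an SD of 0.40. Tuba1c and Chchd2 were also very bright, with levels of 16.55 to 16.81 and of 17.05 to 17.18. These 10 genes came from 14034 named genes with 3 values, and the likeness is a description.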

How the data were processed

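The values come from 3 two-color arrays, 1 per tumor. Per the file headers, the authors read the spots with Agilent Feature Extraction 10.7.3.1 and deposited, for each dye, raw median intensities of spots and local background and the software's processed intensities. The authors also deposited normalized log2 ratios. The methods describe ratios over the control, but across spots the deposited ratios correlated with Cy5 over Cy3 (Pearson's r of 0.898, 0.862 and 0.889), so the labeled dye order turned them to RL over control, as an alternative only.

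Each array had 59305 probe spots. The median spot intensity was 42 to 45 in Cy3, over a local background of 31 to 36, and 96.5 to 100.5 in Cy5, over 70 to 73. The number of arrays limits the precision. In R 4.3.3 with limma 3.58.1, median intensities were corrected by normexp (offset 50), normalized by intensity loess, spatial loess (span 0.1) and Aquantile, and turned to RL over control. The offset compresses ratios of dim genes. Outlier spots (204, 195 and 223) were left out. Probes were kept if marked well above background in every control or every RL channel, and others are called too dim. The brightest probe stood for a gene. Accessions were matched to the RefSeq table of GRCm38.p6 for 28026 of 55681 probes. The array was designed on another build, so gene coordinates are not given beside promoter windows. Per gene, the ratio was tested two-sided with lmFit and eBayes (prior degrees of freedom 6.91), with Benjamini-Hochberg adjustment over all genes and a threshold of 0.05. The ratio pairs cultures by tumor, as labeled. The rank product used 100 permutations. Levels are the mean log2 intensity of an array plus or minus 0.5 times its log2 ratio. Scripts were tested on simulated data.

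The keratins and gene lists were chosen with earlier results of these data known. Named were the 9 keratins, other keratins with 1 sign and a mean of at least 0.2 in size, the 2 highest and 2 lowest mean changes of each list, the NF-κB genes, Tnfrsf11a, and the 5 genes most like Krt14 and Krt18. Alternatives varied background correction, normalization, filter, probe choice, model and tumors. The processed signals, single tumors and control cultures were added for levels after the data were seen.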

Additional observations from a re-analysis of the deposited data

How the results depend on the processing

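With 3 arrays the limits are the number of tumors, 1 array per tumor, and dye orders that differ between tumors. Signal over background limits dim probes, since the offset draws their ratios to 0. No keratin among the 9 passed the threshold under any alternative but 1: without single tumors the count ran from 0 to 1, and the 1 was Krt18 without tumor 2, when both arrays left had RL in Cy3. Of 126 values of the 9 keratins under alternatives, 14 had another sign than reported, of which Krt10 in the processed signals (0.060) moved by over 1 SD. The count of keratins with a 2-fold range over tumors ran from 3 to 4 without single tumors.

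Genes higher with RL, 1 as reported, numbered 6 without background correction, 0 with processed signals, median centering, no filter or the strict filter, 2 with the authors' log2 ratios, 99 with a dye term, 12 with an intensity trend, 7 with robust moderation, 785 at an unadjusted p under 0.05, 37 by rank product and 0 to 494 without single tumors. Genes lower, 5 as reported, numbered 12 without background correction, 0 with processed signals or median centering, 3 with no filter, 129 with a dye term, 28 with an intensity trend, 12 with robust moderation, 772 at an unadjusted p under 0.05, 54 by rank product and 2 to 792 without single tumors. The causes of these differences were not tested.

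Median centering shifted the median of all genes to −0.11. The luminal minus basal change was then −0.14, and Tnfrsf11a (−0.10), Trp63 (−0.11), Evpl (−0.085), Dcn (−0.12), Csf1r (−0.13) and Kdr (−0.060) changed sign, as did, by less than 1 SD, Krt17 (−0.021), Cldn7 (−0.069), Tagln (−0.14) and Thy1 (−0.14). Of the genes with a log2 level of at least 16, 397 of 475 were brighter in Cy5 on all 3 arrays, 475 of 475 with median centering and 142 of 475 in the processed signals.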
